A study of Mus musculus with 6 samples.

Results

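The genes described here encode the aminoacyl-tRNA synthetases of the cytosol and of the mitochondrion. They were taken from the deposited count table as the protein-coding genes whose symbol is a single capital letter followed by ars, with or without a final 1 or 2, together with Eprs, Farsa and Farsb. The rule gave 37 of the 47967 genes in the table, of which 21977 are protein-coding. Symbols ending in 2 name the mitochondrial enzymes, 17 in all, and the other 20 name the cytosolic enzymes. All 37 passed the filter on low counts and were tested.

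The tissue sequenced was gastrocnemius, a calf muscle made mostly of fast fibres, from C57BL/6 males aged 20 to 24 weeks. The control mice ate a normal phosphate diet with 0.6% inorganic and 0.9% total phosphate, and the other mice ate a high phosphate diet with 2.0% inorganic and 2.3% total phosphate, each for 12 weeks. Magnesium, calcium, potassium and sodium were the same in both diets per the labels. Each diet had 3 libraries, numbered here as replicates of that diet. Whether a library stands for 1 mouse is not said in the labels, and the p-values then describe no more than the spread among the 6 libraries, which may be technical. The stated purpose was to learn how a high phosphate intake acts on this muscle.

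Each aminoacyl-tRNA synthetase joins its amino acid to the tRNAs that carry it, the step that fixes the meaning of a codon. The cytosolic enzymes supply the ribosomes that translate nuclear-encoded messages, and several of them sit together in a multisynthetase complex held by small scaffold proteins. The mitochondrial enzymes are also encoded in the nucleus and are imported to supply the organelle's own ribosomes, which make core subunits of the respiratory chain. In amino acid shortage and related stresses the transcription factor ATF4 is known to raise many cytosolic synthetase genes through composite C/EBP-ATF elements near their start sites.

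The core of that composite element, TGATGNAA, was looked for on both strands of the RefSeq promoter windows on GRCm38.p6, which run from 250 bases before to 50 bases after a start site. RefSeq held a window for 27 of the 37 genes, 13 cytosolic and 14 mitochondrial. The core was present in 5 of the 13 cytosolic genes (38.5%) and in 0 of the 14 mitochondrial genes with a window, against 4.51% of all 27025 genes with windows of the same length. Those 5 promoters are shown because they are the cytosolic start regions that hold these letters. Each sequence runs from 120 bases before to 30 bases after the start, 5′ to 3′ on the gene's strand, with the core in capitals. Aars lies at chr8:111033722-111033871 on the + strand, Gars at chr6:55037881-55038030 (+), Iars at chr13:49682010-49682159 (+), Tars at chr15:11399629-11399778 (-) and Yars at chr4:129189783-129189932 (+).
Aars: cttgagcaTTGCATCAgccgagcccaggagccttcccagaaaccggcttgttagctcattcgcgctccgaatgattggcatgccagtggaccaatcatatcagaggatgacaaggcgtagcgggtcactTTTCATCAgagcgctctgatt
Gars: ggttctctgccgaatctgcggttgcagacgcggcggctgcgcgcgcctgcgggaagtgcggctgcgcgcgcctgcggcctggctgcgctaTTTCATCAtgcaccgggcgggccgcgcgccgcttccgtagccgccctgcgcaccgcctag
Iars: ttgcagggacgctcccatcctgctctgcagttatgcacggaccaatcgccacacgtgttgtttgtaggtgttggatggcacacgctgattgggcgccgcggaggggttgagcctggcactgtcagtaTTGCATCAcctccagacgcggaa
Tars: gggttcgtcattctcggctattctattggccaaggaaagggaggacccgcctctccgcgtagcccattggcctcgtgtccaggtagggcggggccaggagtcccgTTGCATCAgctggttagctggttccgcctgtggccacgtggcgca
Yars: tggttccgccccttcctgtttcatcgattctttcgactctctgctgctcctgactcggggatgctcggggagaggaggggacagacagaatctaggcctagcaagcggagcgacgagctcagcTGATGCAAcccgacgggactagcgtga

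Aars, for alanine, held the core at 2 places, from -112 to -105 and from +10 to +17 counted from the start site. In Gars it lay from -30 to -23, in Iars from +8 to +15, in Tars from -15 to -8 and in Yars from +4 to +11. Yars carried it on the gene's own strand, and the other 4 carried it on the opposite strand, where it reads TTGCATCA or TTTCATCA in the sequences shown. The variant TGATGCAA, chosen after the sequences were seen, was present in 4 of the 13 cytosolic genes with a window (30.8%) and in 1.03% of all genes with one. A match describes letters in a window and does not show that a factor binds there. The windows not held included those of Cars, Hars, Lars, Nars, Rars, Vars, Wars, Hars2 and Pars2.

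The libraries held 21856006 to 27474251 gene counts. Synthetase counts per library ran from 90 for Pars2 to 6871 for Eprs, so counting error was largest for the least abundant mitochondrial enzymes. On the first principal component, which took 77.3% of the variance, the high phosphate libraries lay between 51.1 and 53.0, and normal phosphate replicate 2 stood apart from the other normal phosphate libraries at -75.4 against -36.5 and -43.8. Counts were scaled by TMM, which sets the median gene near no change (median log2 fold change -0.02), with factors of 1.10, 1.29 and 1.16 on the normal and 0.795, 0.871 and 0.882 on the high phosphate diet. Scaling by library size alone put that median at -0.49. A direction below is therefore relative to a typical gene in the same libraries, and values under library size alone are given for the genes named singly where they turn it. A gene was called at a Benjamini-Hochberg adjusted p under 0.05 in edgeR's quasi-likelihood test over 15347 genes, and a log2 fold change compares the high with the normal phosphate diet, given ± its SE.

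Under the high phosphate diet, 18 of the 20 cytosolic synthetase genes rose relative to a typical gene and 0 fell, with a median log2 fold change of 0.56 and a range of 0.14 to 0.99. Over all genes tested 23.0% were called higher and 26.3% lower. At an unadjusted p under 0.05, edgeR called 0 cytosolic genes lower, and DESeq2 likewise called 18 higher and 0 lower. Hars and Wars, for histidine and tryptophan, were the 2 cytosolic genes that were not called. With library size alone as the scale, 6 cytosolic genes were called higher and 2 lower, where 5.72% of all genes were called higher and 51.3% lower, and the class median was 0.08. In a limma test of the deposited FPKM values, taken as log2(FPKM + 1), 6 were called higher and 1 lower, where 3.95% and 33.3% of 20016 genes were called. The 6 called higher under all 17 alternative settings were Aars, Iars, Cars, Eprs, Mars and Nars.

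**Figure D1:**
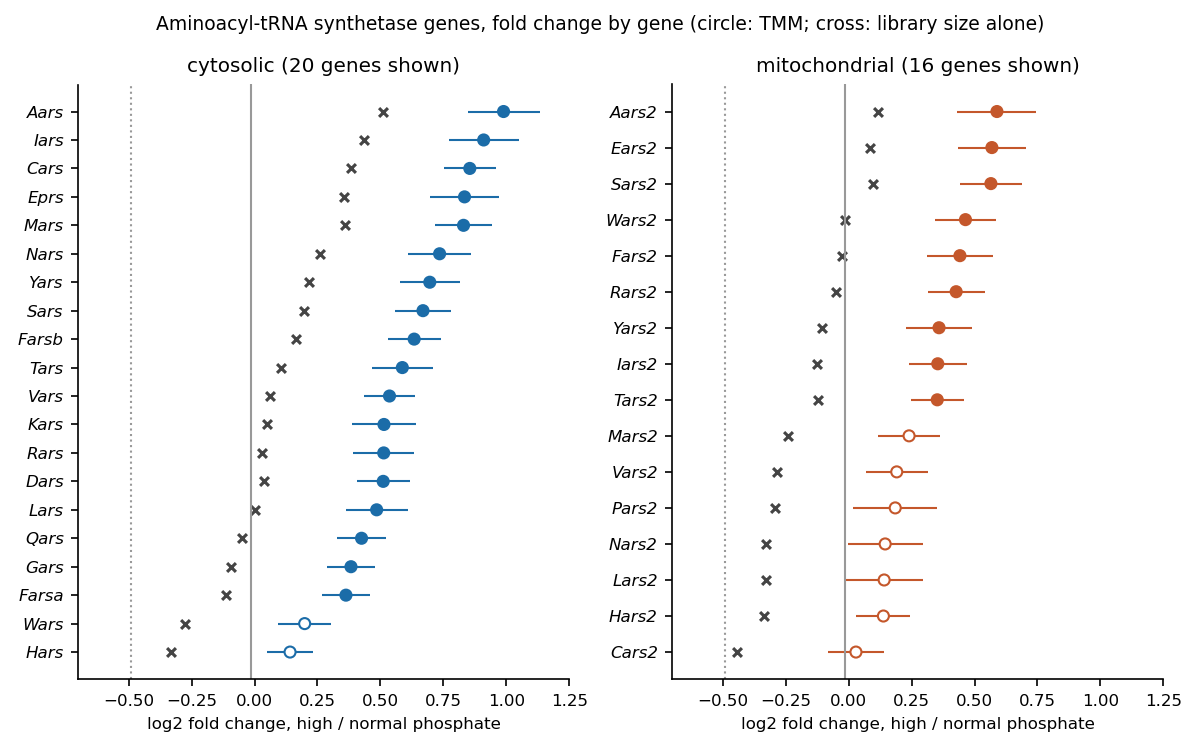
Log2 fold change of each synthetase gene, high over normal phosphate, for 20 cytosolic (left) and 16 of the 17 mitochondrial (right) genes. Circles are TMM-scaled edgeR values with bars of 1 SE (filled where called, open where not), crosses are the same genes scaled by library size alone, and the solid and dotted vertical lines mark the median of all genes tested under each scale; every circle lies right of the solid line, whereas under library size alone 5 cytosolic and 13 mitochondrial crosses lie below 0.

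The 2 largest changes in the class were those of alanine and isoleucine. Aars, the alanyl-tRNA synthetase (ENSMUSG00000031960, GRCm38 chromosome 8, 111033144 to 111057664), had 75.9, 65.4 and 74.2 TMM-scaled CPM, which are counts scaled to a common library total, in the normal phosphate libraries and 171, 130.3 and 126 in the high phosphate libraries. All of the high phosphate values were above all of the normal phosphate values, and high phosphate replicate 1 was the highest. The means were 71.8 ± 5.63 and 143 ± 25.1 CPM (SD, n = 3), giving 0.99 ± 0.14 as log2 fold change (edgeR adjusted p = 0.00103), which exceeded that of 95.2% of the genes tested. In the GENCODE M21 annotation, 14.3% of the exonic bases of Aars overlap Exosc6, a subunit gene of the RNA exosome on the same strand, so reads from that stretch cannot be given to Aars alone.

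Iars, the isoleucyl-tRNA synthetase of the multisynthetase complex (ENSMUSG00000037851, chromosome 13, 49682100 to 49734267), had 62.4, 51.4 and 60.6 CPM under normal and 129.6, 101 and 97.3 CPM under high phosphate. The diets did not overlap, and replicate 1 was again the highest of the high phosphate libraries. Its log2 fold change was 0.91 ± 0.14 (edgeR adjusted p = 0.0012). Of the distinct stretches of 50 bases in its transcripts, 7.15% also occur in those of Gm4849, so a small part of its reads could be split between the 2 genes.

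Cysteine, the glutamate and proline pair, and methionine followed. Cars, the cysteinyl-tRNA synthetase (ENSMUSG00000010755, chromosome 7, 143557230 to 143600090), had 32.3, 27.4 and 31.0 CPM under normal and 58.6, 52.8 and 52.5 CPM under high phosphate. The lowest high phosphate library was well above the highest normal phosphate library, and the log2 fold change was 0.86 ± 0.10 (edgeR adjusted p = 0.000599). Eprs encodes a fused enzyme that charges both glutamate and proline tRNAs and is a core of the multisynthetase complex (ENSMUSG00000026615, chromosome 1, 185363044 to 185428360). It had 164, 153 and 149 CPM under normal and 314, 265 and 249.9 CPM under high phosphate, without overlap, giving 0.83 ± 0.14 as log2 fold change (edgeR adjusted p = 0.00159). Mars, the methionyl-tRNA synthetase that charges both initiator and elongator tRNAs (ENSMUSG00000040354, chromosome 10, 127296221 to 127311786), had 52.3, 42.1 and 51.3 CPM against 91.3, 81.5 and 86.2 CPM. These groups did not overlap either, and the log2 fold change was 0.83 ± 0.11 (edgeR adjusted p = 0.000852). Mars shares 1.99% of its exonic bases with Ddit3 on the opposite strand.

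Among the cytosolic genes, Kars and Nars had the highest levels per length, with mean deposited FPKM values over the 6 libraries of 41.6 and 39.1, ahead of Dars at 38.6 and Eprs at 31.6. Nars, the asparaginyl-tRNA synthetase, had 111, 96.3 and 108 CPM under normal and 196, 163 and 165 CPM under high phosphate. Its diets did not overlap, and its log2 fold change was 0.74 ± 0.13 (edgeR adjusted p = 0.00182). Kars encodes the lysyl-tRNA synthetase of both the cytosol and the mitochondrion. It had 103, 79.8 and 100.3 CPM under normal and 131, 142 and 132 CPM under high phosphate, with the lowest value in normal phosphate replicate 2. The groups did not overlap, and the log2 fold change was 0.51 ± 0.13 (edgeR adjusted p = 0.00933), and 0.05 with library size alone.

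**Figure D2:**
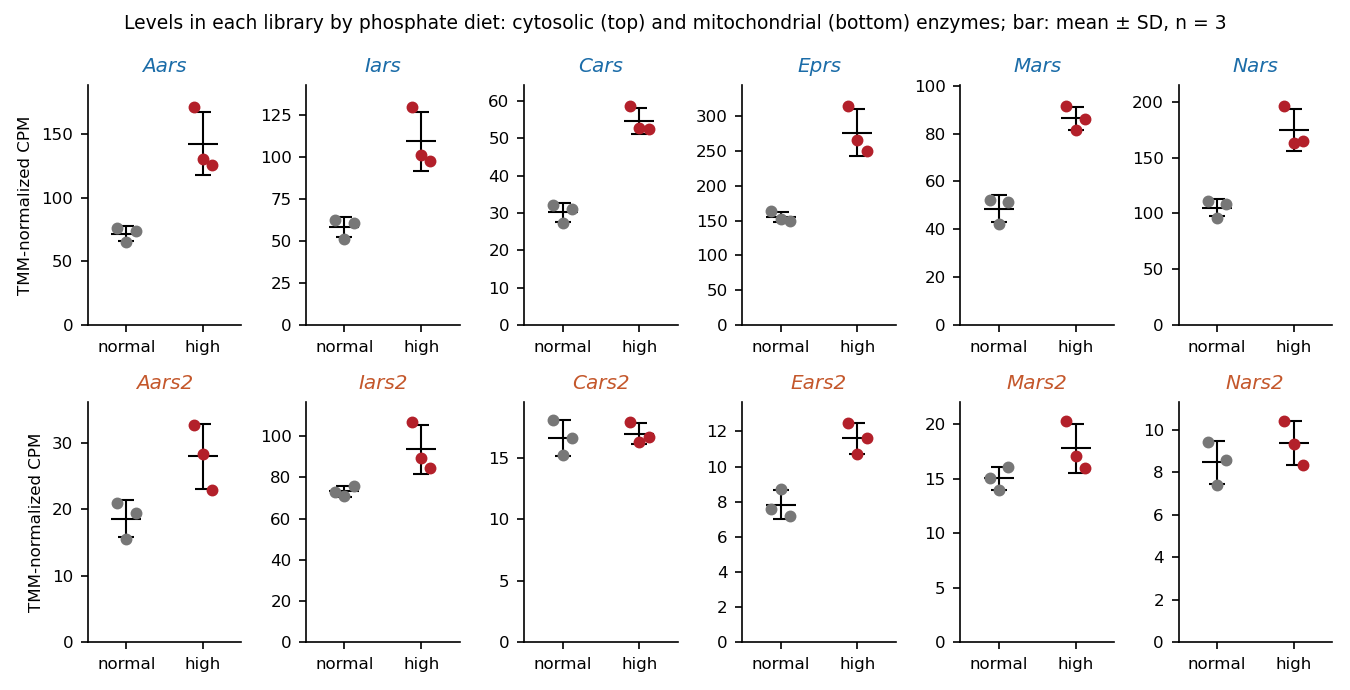
TMM-scaled CPM in each library (points) by phosphate diet for 6 cytosolic genes (top) and 6 mitochondrial genes (bottom), with bars at the mean ± SD of 3 libraries and each vertical axis starting at 0. In the top row each high phosphate point lies above all normal phosphate points, as also for Aars2, Iars2 and Ears2, whereas the points overlap for Cars2, Mars2 and Nars2.

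The remaining 11 called cytosolic genes lay between 0.36 and 0.70 on the log2 scale. Yars (tyrosine) was at 0.70, Sars (serine) at 0.67, and Farsb, the beta subunit of the phenylalanyl enzyme, at 0.63. Tars (threonine) stood at 0.59 and Vars (valine) at 0.54. Rars (arginine), Dars (aspartate), Lars (leucine) and Qars (glutamine), 4 members of the multisynthetase complex, were at 0.51, 0.51, 0.49 and 0.43. Gars, the glycyl enzyme that like Kars serves both compartments, and Farsa, the alpha subunit of the phenylalanyl enzyme, were lowest of those called at 0.38 and 0.36. Under library size alone Qars, Gars and Farsa stood below 0, at -0.05, -0.09 and -0.11. The 2 phenylalanyl subunits, which act in a single complex, thus had log2 fold changes of 0.63 ± 0.11 and 0.36 ± 0.10, a difference that was not tested.

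All 8 genes of the multisynthetase complex (Dars, Eprs, Iars, Kars, Lars, Mars, Qars and Rars) were called higher, with a median log2 fold change of 0.51 and a range of 0.43 to 0.91. Of the 12 cytosolic genes outside it, 10 were called higher and their median was 0.61, so the complex members did not stand above the rest by this measure. Under library size alone 3 members of the complex and 3 genes outside it were called higher. Of the 5 genes whose promoter holds the C/EBP-ATF core (sequences above), the log2 fold changes ran from 0.38 to 0.99 with a median of 0.70, and those of the 8 cytosolic genes with a window without it ran from 0.36 to 0.83 with a median of 0.57. These 2 ranges overlapped over most of their length.

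The 2 cytosolic genes that were not called had small values. Hars, the histidyl enzyme, had 33.2, 31.2 and 32.8 CPM under normal and 36.5, 36.8 and 33.8 CPM under high phosphate, giving 0.14 ± 0.09 as log2 fold change (edgeR adjusted p = 0.227). Wars, the tryptophanyl enzyme, had 47.0, 42.5 and 45.3 CPM against 55.8, 52.7 and 46.1 CPM, with overlapping diets, giving 0.20 ± 0.11 as log2 fold change (edgeR adjusted p = 0.14). With library size alone both were called lower, Hars at -0.33 (edgeR adjusted p = 0.0241) and Wars at -0.28 (edgeR adjusted p = 0.0397). On log2(FPKM + 1) Hars alone of the cytosolic genes was called lower, at -0.30 (limma adjusted p = 0.0468). Hars and its mitochondrial neighbour Hars2 overlap on opposite strands in 7.97% of the exonic bases of Hars. The strand setting of the counting is not given in the sources used here, so where 2 genes overlap on opposite strands their reads cannot be separated. All high phosphate values lay above all normal phosphate values for 19 of the 20 cytosolic genes, Hars included, against 30.3% of all genes tested.

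Of the 17 mitochondrial synthetase genes, 10 rose relative to a typical gene and 0 fell, with a median log2 fold change of 0.35 and a range of 0.03 to 0.59, a median that turned to -0.12 both under library size alone and on log2(FPKM + 1). With TMM, 23.0% of all genes tested were called higher and 26.3% lower. At an unadjusted p under 0.05, edgeR called 0 lower, and DESeq2 called 10 higher and 0 lower. Scaling by library size alone called 0 higher and 3 lower (Cars2, Hars2 and Lars2), where 5.72% of all genes were called higher and 51.3% lower. On log2(FPKM + 1) 0 were called higher and 2 lower (Cars2 and Hars2), where 3.95% and 33.3% of all genes were called. All high phosphate values lay above all normal phosphate values for 10 of the 17, against 30.3% of all genes tested. A change of at least 1.5-fold was called for 1 mitochondrial gene, Aars2, and for 10 cytosolic genes.

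Aars2, the mitochondrial alanyl enzyme (ENSMUSG00000023938, chromosome 17, 45506841 to 45520843), had 20.9, 15.6 and 19.4 CPM under normal and 32.7, 28.4 and 22.9 CPM under high phosphate. The groups did not overlap, though high phosphate replicate 3 came close to normal phosphate replicate 1. Its log2 fold change was 0.59 ± 0.16 (edgeR adjusted p = 0.013). Ears2 charges mitochondrial tRNAs with glutamate, including the glutamine tRNA that is then converted by an amidotransferase (ENSMUSG00000030871, chromosome 7, 122037213 to 122067263). It had 7.58, 8.74 and 7.20 CPM against 12.5, 10.7 and 11.6 CPM, without overlap, giving 0.57 ± 0.14 as log2 fold change (edgeR adjusted p = 0.00777). Sars2, the mitochondrial seryl enzyme (ENSMUSG00000070699, chromosome 7, 28741992 to 28753871), had 11.3, 9.34 and 11.2 CPM against 16.2, 16 and 14.8 CPM. It too separated the diets, at 0.57 ± 0.12 (edgeR adjusted p = 0.00505). Under library size alone these 3 were the only mitochondrial genes above 0, at 0.12, 0.08 and 0.10, and none of them was called.

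Wars2, the mitochondrial tryptophanyl enzyme, had 8.15, 7.82 and 7.68 CPM under normal and 11.4, 11.1 and 10.2 CPM under high phosphate, giving 0.46 ± 0.12 as log2 fold change (edgeR adjusted p = 0.0125). Fars2, the single-chain mitochondrial phenylalanyl enzyme, had 24.9, 19.4 and 22.3 CPM against 29.8, 33.9 and 26.7 CPM, giving 0.44 ± 0.13 as log2 fold change (edgeR adjusted p = 0.0201). Neither overlapped between the diets, and both stood below 0 with library size alone, at -0.01 and -0.03. Fars2 overlaps Nrn1 on the opposite strand in 8.72% of its exonic bases.

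Further called mitochondrial genes were Rars2 (arginine) at 0.43, Yars2 (tyrosine) at 0.36, Iars2 (isoleucine) at 0.35 and Tars2 (threonine) at 0.35, and these 4 stood below 0 under library size alone, at -0.05, -0.11, -0.13 and -0.12. Per length, Lars2 and Iars2 were the most abundant mitochondrial genes, with mean FPKM values of 31.2 and 17.9, and Mars2 was the least at 1.12. Iars2 had 73.0, 70.7 and 76.0 CPM under normal and 107, 89.2 and 84.6 CPM under high phosphate, giving 0.35 ± 0.12 as log2 fold change (edgeR adjusted p = 0.0299). The diets did not overlap, but 22.9% of its exonic bases overlap Rab3gap2, a GTPase regulator gene on the opposite strand. Lars2, the mitochondrial leucyl enzyme, had 151, 119 and 159 CPM against 181, 139 and 153 CPM. Its diets overlapped, and its log2 fold change was 0.14 ± 0.15 (edgeR adjusted p = 0.466). Reads at the Lars2 locus are known as a place where mitochondrial 16S rRNA can be miscounted. The 9 GENCODE M21 transcripts of Lars2 shared 0 stretches of 20 bases with mt-Rnr2, the 16S rRNA gene, on either strand. The reads themselves were not examined, so the level of Lars2 stays uncertain in this respect.

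The 7 mitochondrial genes that were not called had log2 fold changes of 0.24 for Mars2 (methionine), 0.19 for Vars2 (valine), 0.19 for Pars2 (proline), 0.15 for Nars2 (asparagine), 0.14 for Lars2 and for Hars2 (histidine), and 0.03 for Cars2 (cysteine). Cars2 had 18.1, 15.2 and 16.6 CPM under normal and 17.9, 16.3 and 16.7 CPM under high phosphate, so its diets overlapped throughout (log2 fold change 0.03 ± 0.11, edgeR adjusted p = 0.845). All 7 were below 0 under library size alone, down to -0.44 for Cars2.

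Of the 10 mitochondrial calls, 5 were lost when a single library was left out, whereas the cytosolic class kept 18 calls in each such run. Calls were lost over the whole table too. With all libraries 3528 of 15347 genes were called higher, and in these runs 2782 to 3501 genes were. The fewest, 2782 of 15957, were called without high phosphate replicate 1. Without high phosphate replicate 1 4 calls were lost, among them those of Iars2, Tars2 and Yars2 (edgeR adjusted p = 0.0976, 0.0661 and 0.104), and 6 remained. Fars2 was lost without high phosphate replicate 2 (edgeR adjusted p = 0.0721). Iars2 was lost without normal phosphate replicate 1 or 3 (edgeR adjusted p = 0.0594 and 0.0574), and Tars2 without normal phosphate replicate 3 or high phosphate replicate 3 (edgeR adjusted p = 0.0613 and 0.0515). Yars2, whose adjusted p was 0.0471 with all libraries in edgeR, kept its call only without normal phosphate replicate 1. The calls of Aars2, Ears2, Sars2, Wars2 and Rars2 were kept in all 6 runs.

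Ratios of counts within a library do not depend on how the libraries are scaled. Summed over each class, cytosolic counts were 2.75, 2.88 and 2.65 times the mitochondrial counts in the normal phosphate libraries and 3.48, 3.61 and 3.52 times in the high phosphate libraries. The groups did not overlap, and the mean ratio went from 2.76 ± 0.115 to 3.54 ± 0.0666 (SD, n = 3). Lars2, whose level is uncertain as said above, made up 27.6% to 34.6% of the mitochondrial sum. Without it the ratios were 4.09, 4.13 and 4.05 under normal and 5.02, 4.98 and 5.06 under high phosphate, again without overlap. As a share of all gene counts, the cytosolic genes took 0.140%, 0.146% and 0.141% under normal and 0.164%, 0.159% and 0.156% under high phosphate. The mitochondrial genes took 0.0508%, 0.0505% and 0.0533% under normal and 0.0472%, 0.0440% and 0.0444% under high phosphate. The cytosolic share was thus higher in every high phosphate library and the mitochondrial share lower, with no overlap in either. Such a share is on the scale of library size alone. There the median log2 fold change was -0.49 for all genes and -0.12 for the mitochondrial class. The lower mitochondrial share is therefore not a fall relative to a typical gene. Without Lars2 the mitochondrial share was 0.0341%, 0.0352% and 0.0349% under normal and 0.0328%, 0.0318% and 0.0309% under high phosphate. On the mean log2 CPM, which gives each gene equal weight, the cytosolic class stood above the mitochondrial class by 1.67 ± 0.03 under normal and 1.93 ± 0.01 under high phosphate. The genes were proposed with results of these data known, so no p is given for the class difference.

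**Figure D3:**
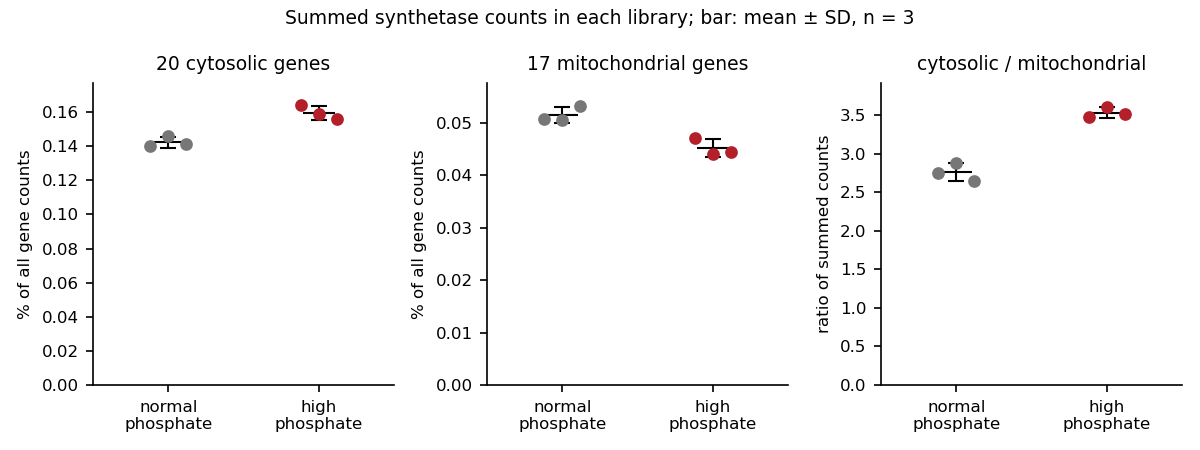
Summed counts of the 20 cytosolic genes and of the 17 mitochondrial genes as a percentage of all gene counts, and the ratio of the 2 sums, in each library (points) by diet, with bars at the mean ± SD of 3 libraries and axes from 0. The cytosolic share and the ratio are higher in all 3 high phosphate libraries, and the mitochondrial share is lower in all 3.

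Enzymes for the same amino acid could be set side by side in 18 pairs covering 17 amino acids, with Eprs paired to both Ears2 and Pars2 and Fars2 to both Farsa and Farsb. Gars and Kars serve both compartments and Qars has no mitochondrial partner gene. The cytosolic gene had the larger log2 fold change in 16 of the 18 pairs, with a median difference of 0.30. The ratio of cytosolic to mitochondrial counts was higher in all high phosphate libraries than in all normal phosphate libraries for 10 pairs, lower for 1 pair and overlapping for 7. No such count was made for ratios of other gene pairs, so how far these numbers depart from theirs is not known. Among single genes tested, 30.3% were higher and 32.1% lower without overlap, on TMM-scaled CPM.

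The widest pair was that of cysteine, where Cars to Cars2 ratios were 1.78, 1.80 and 1.87 under normal and 3.28, 3.24 and 3.15 under high phosphate, so that the cytosolic gene rose while its partner was not called. For isoleucine the ratio of Iars to Iars2 was 0.855, 0.728 and 0.798 against 1.21, 1.13 and 1.15, moving from fewer to more cytosolic than mitochondrial counts. Alanine, in which both partners were called, had ratios of 3.63, 4.20 and 3.82 against 5.24, 4.59 and 5.51. Methionine, asparagine and proline had a called cytosolic gene and an uncalled partner. Their mean ratios went from 3.22 ± 0.23 to 4.89 ± 0.453 for Mars to Mars2, from 12.4 ± 0.637 to 18.7 ± 1.13 for Nars to Nars2, and from 34.5 ± 3.42 to 54.0 ± 5.12 for Eprs to Pars2 (SD, n = 3).

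Leucine and valine also had a called cytosolic and an uncalled mitochondrial gene. Lars to Lars2 ratios were 0.273, 0.355 and 0.271 under normal and 0.386, 0.376 and 0.359 under high phosphate, without overlap, and those of Vars to Vars2 overlapped (mean 3.03 ± 0.343 against 3.88 ± 0.535). Tryptophan was the only pair with a lower ratio and the only one with a called mitochondrial gene beside an uncalled cytosolic gene. Its Wars to Wars2 ratios were 5.76, 5.44 and 5.90 under normal and 4.92, 4.75 and 4.54 under high phosphate. Histidine, in which neither gene was called, had the same mean ratio under both diets (1.34 ± 0.064 and 1.34 ± 0.122). Serine, with both genes called, moved little, from 7.07 ± 0.377 to 7.58 ± 0.0408, although its libraries did not overlap.

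**Figure D4:**
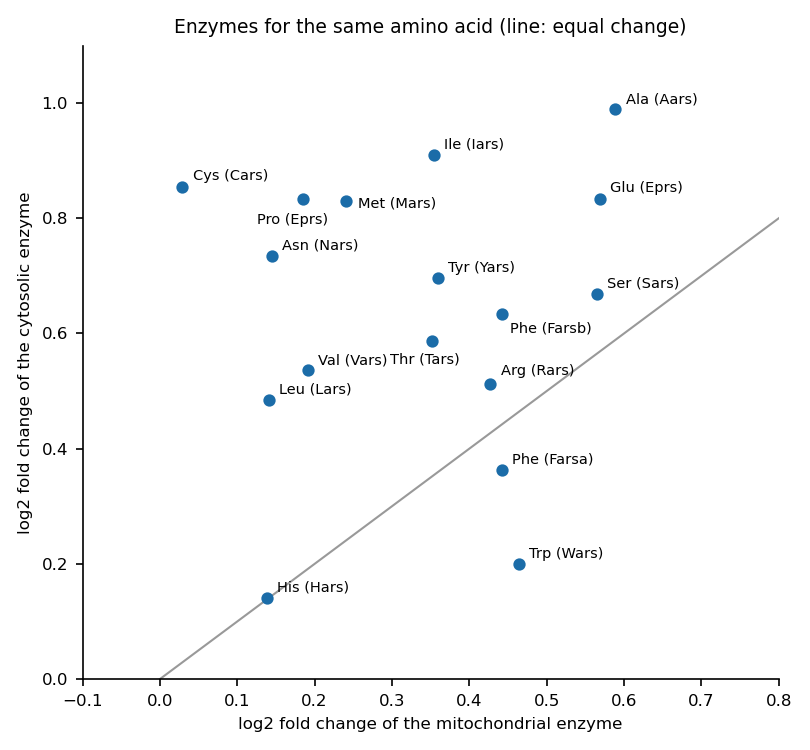
Log2 fold change of the cytosolic gene (vertical) against that of the mitochondrial gene (horizontal) for 17 of the 18 pairs of enzymes for the same amino acid, under TMM scaling; the line marks equal change. Of the 17 points, 15 lie above the line and 2, tryptophan (Wars with Wars2) and phenylalanine (Farsa with Fars2), lie below it.

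Genes that work next to the synthetases were counted from lists chosen, like the members, with earlier results known. Over all genes tested, 23.0% were called higher and 26.3% lower with TMM, against 5.72% and 51.3% with library size alone. Counts near these shares, such as 1 called of 4 or of 6 genes below, are no result about a list. Of the 3 scaffold proteins of the multisynthetase complex, 2 rose. Aimp2 was at 0.86 ± 0.19 (edgeR adjusted p = 0.00624) and Aimp1 at 0.61 ± 0.13 (edgeR adjusted p = 0.00414), whereas Eef1e1 at 0.29 was not called and stood at -0.17 with library size alone. On that scale 1 of the 3 was called higher and 0 lower, with a median of 0.14, and Aimp1 at 0.14 lost its call (edgeR adjusted p = 0.227). On log2(FPKM + 1) 0 of the 3 were called by limma. Among 4 tested synthetase-like and editing genes, 1 was called higher. This was Tarsl2, a further cytosolic threonyl-tRNA synthetase whose symbol the selection rule does not match, with 64.6, 47.6 and 61.8 CPM under normal and 125, 102 and 96.0 CPM under high phosphate (0.89 ± 0.15, edgeR adjusted p = 0.00172). Its diets did not overlap, and it exceeded Tars at 0.59 in log2 fold change. The list's median was 0.09, and -0.38 with library size alone, where 1 gene was called higher and 2 lower.

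In the mitochondrion, 3 of 4 genes for glutaminyl-tRNA and initiator tRNA formation rose, all of them subunits of the amidotransferase that converts the product of Ears2. Qrsl1 and Gatb were each at 0.61 ± 0.15 (edgeR adjusted p = 0.00817 and 0.00857) and Gatc at 0.51 ± 0.13 (edgeR adjusted p = 0.012). The remaining gene, Mtfmt, which formylates the initiator methionyl-tRNA, was at -0.28 and not called. Under library size alone 0 of the 4 were called higher and 1 lower, and the median went from 0.56 to 0.09. Of 10 mitochondrial translation factors, 4 rose and 0 fell, namely the elongation factors Gfm1 (0.86) and Tufm (0.58), the ribosome recycling factor Gfm2 (0.77) and the release factor Mtrf1 (0.75). Their median was 0.34, and -0.14 with library size alone, where 2 were called higher and 0 lower.

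Cytosolic elongation factors moved in both directions. Of 8 genes 6 rose and 1 fell, with a median of 0.54, against 2 higher, 2 lower and a median of 0.08 with library size alone. The change was opposite for the 2 forms of the factor that brings charged tRNA to the ribosome. Eef1a2, the form of mature muscle and neurons, had 946, 636 and 838 CPM under normal and 2223, 1970.4 and 1816 CPM under high phosphate (1.31 ± 0.21, edgeR adjusted p = 0.00133). Eef1a1, the form of most other cells, had 1191, 1365 and 1104 CPM under normal and 478, 699 and 545 CPM under high phosphate (-1.09 ± 0.20, edgeR adjusted p = 0.0023). Neither overlapped between the diets. Eef2k, the kinase that inhibits elongation factor 2, was at 1.09 and Eef1d, an exchange factor subunit, at 0.52.

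Of 20 tested genes for tRNA maturation, 12 rose and 0 fell, with a median of 0.41, against 2 higher, 4 lower and a median of -0.06 with library size alone. The strongest by p were Cdk5rap1, which modifies mitochondrial tRNAs (1.06 ± 0.14, edgeR adjusted p = 0.000676), 1110008L16Rik (0.88), and the tRNA methyltransferase genes Mettl1 (0.68) and Trmt1 (0.64). Cdk5rap1 was at -0.22 on log2(FPKM + 1), so its direction was not the same in both deposited tables. For selenocysteine tRNA, 1 of 6 genes was called higher, against 0 higher and 3 lower with library size alone. It was Secisbp2 at 0.35 (edgeR adjusted p = 0.0345), which stood at -0.13 with library size alone and whose call was lost without high phosphate replicate 1 or 3 or normal phosphate replicate 1 or 3 (edgeR adjusted p = 0.113, 0.0631, 0.0885 and 0.0659).

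Genes of the amino acid response, in which ATF4 acts, moved in both directions. These are RNA levels, and the activity of ATF4 was not measured. Among 12 regulators of the amino acid response 5 rose and 1 fell, with a median of 0.20, against 2 higher, 4 lower and a median of -0.27 with library size alone. Atf4 itself had 174, 135 and 158 CPM under normal and 258, 246 and 248 CPM under high phosphate, without overlap (0.69 ± 0.13, edgeR adjusted p = 0.00325). Atf4 was not called with library size alone, at 0.22 (edgeR adjusted p = 0.0874), or on log2(FPKM + 1), at 0.16 (limma adjusted p = 0.296). Its partners Cebpb and Cebpg were at 1.21 and 0.54, and Ppp1r15a, a phosphatase subunit that reverses the stress-induced block of initiation, at 1.06. Cebpg was not called with library size alone, at 0.07 (edgeR adjusted p = 0.561), but was on log2(FPKM + 1), at 0.73 (limma adjusted p = 0.0331). Cebpb was called with library size alone (edgeR adjusted p = 0.0217) but not on log2(FPKM + 1) (limma adjusted p = 0.0853). Gcn1l1, an activator of the kinase that senses uncharged tRNA, was called at 0.27 (edgeR adjusted p = 0.0466) but stood at -0.21 with library size alone and at -0.15 on log2(FPKM + 1), called in neither. Eif2ak3, the kinase of endoplasmic reticulum stress, fell by 0.61. Gcn1l1 and Eif2ak3 were named after their values were seen. Not called were, for example, Ddit3 at -0.06, Trib3 at -0.13 and Sesn2 at 0.04 (-0.45 with library size alone). Ddit3 was called lower with library size alone, at -0.53 (edgeR adjusted p = 0.00839), and on log2(FPKM + 1), at -0.55 (limma adjusted p = 0.014).

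Of 16 tested amino acid response targets other than synthetases, 4 rose and 7 fell, with a median of -0.06, where 23.0% of all genes were called higher and 26.3% lower. Of the cytosolic synthetase genes, 18 of 20 were called higher and 0 lower, and the difference from these targets was not tested. Chac1, which breaks down glutathione, had 17.1, 16.9 and 11.1 CPM under normal and 98.2, 185 and 98.5 CPM under high phosphate (3.08 ± 0.30, edgeR adjusted p = 0.0005), and Slc38a2, a neutral amino acid transporter, was at 1.49. Shmt2 and Mthfd2, enzymes of mitochondrial folate metabolism named after their values were seen, were at 0.46 and 0.71, and Shmt2 stood at -0.01 both with library size alone and on log2(FPKM + 1). Phgdh and Psat1, the enzymes that open serine synthesis, were on the other side. Phgdh had 16.7, 17.8 and 19.9 CPM under normal and 4.85, 4.84 and 5.19 CPM under high phosphate (-1.87 ± 0.13, edgeR adjusted p = 8.94e-05), and Psat1 was at -1.63. Asns, the asparagine synthetase gene, also named after its values were seen, fell from 8.42 ± 0.80 to 3.55 ± 0.484 CPM (SD, n = 3, log2 fold change -1.25). Scaled by library size, 2 targets were called higher and 8 lower, where 5.72% of all genes were called higher and 51.3% lower. The 8 called lower are near that share and are no result about this list.

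**Figure D5:**
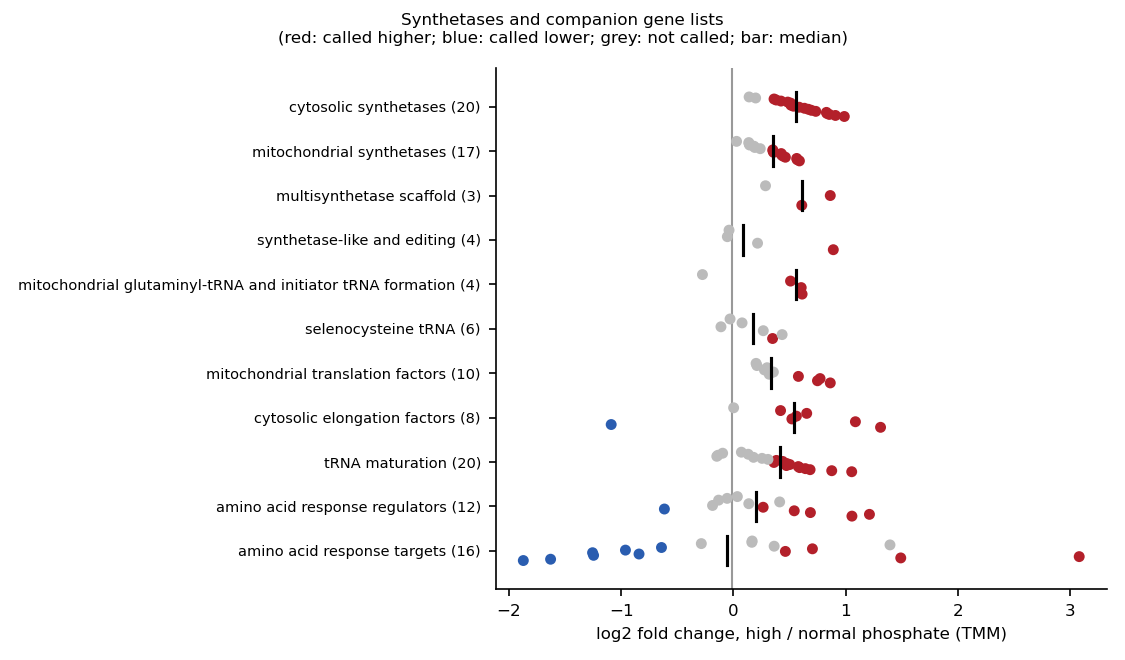
Log2 fold change of each tested gene under TMM scaling in the 2 synthetase classes and 9 companion lists, with the number of genes in brackets, calls in red (higher), blue (lower) or grey (not called), a bar at each list's median and a vertical line at the median of all genes. No synthetase is blue, whereas 7 of the 16 amino acid response targets are. With library size alone the medians of the mitochondrial synthetases, synthetase-like, selenocysteine, mitochondrial translation, tRNA maturation, regulator and target lists lie below 0.

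Markers of cell types moved with the diet beside these results, and in bulk tissue fewer cells of a type and less RNA per cell cannot be told apart. The marker counts here and below stand beside 23.0% of all genes tested called higher and 26.3% called lower. All 7 white adipocyte markers were called lower, their summed level going from between 2337 and 2973 CPM under normal to between 551 and 951 CPM under high phosphate. All 6 fibroblast markers (3925 to 8396 against 1965 to 2233 CPM), all 6 macrophage markers (852 to 1592 against 284 to 406 CPM) and all 4 endothelial markers (613 to 739 against 361 to 507 CPM) were also called lower. Lymphocyte markers were low and fell further, from 8.99 to 56.1 CPM to 0.961 to 1.83 CPM for 5 B cell markers and from 6.81 to 22.6 CPM to 0.57 to 1.12 CPM for 4 T cell markers. Of 4 Schwann cell markers 1 was called lower (189 to 237 against 159 to 222 CPM) and 3 were not called. That count is near the share of all genes called lower and is no result about these cells.

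Fast fibre genes, which mark the labelled tissue, were the most abundant of the marker lists in every library. Of 6 fast fibre markers 5 were called higher, with sums of 40182 to 59666 CPM under normal and 120708 to 155655 CPM under high phosphate, while all 4 slow fibre markers were called lower (891 to 1373 against 274 to 404 CPM). No marker in these lists was at 0 in all libraries. The part of these shifts in the synthetase results was not tested.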

How the data were processed

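RNA from mouse gastrocnemius was sequenced in 6 libraries, 3 for each phosphate diet. The authors deposited whole-number counts per gene, not normalized, and FPKM values for 38011 genes. GRCm38, featureCounts 1.4.6, HISAT2 2.0.1, DESeq2 1.6.3 and Trim Galore 0.4.1 are listed, per the submitters' processing notes, without their roles. Neither the annotation release nor the strand setting nor the FPKM tool is given there.

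The counts were tested with edgeR 4.0.16 in R 4.3.3 (TMM, filterByExpr, quasi-likelihood F test with robust estimation, Benjamini-Hochberg adjustment over 15347 genes), after the script had been tested on simulated data. The SE is the log2 fold change divided by the square root of F, which is approximate. The common biological coefficient of variation was 0.161. Chi-square over degrees of freedom between replicates was 16.5 to 52.4, far above the value near 1 for libraries that differ by counting error alone. Alternatives were DESeq2 1.42.0, limma-voom and limma 3.58.1 on log2(FPKM + 1) and log2(FPKM + 0.1) for genes of at least 0.1 FPKM in 3 libraries or for all genes above 0, other scalings and filters, a replicate block and leaving out each library.

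The members and lists were chosen with earlier results of these data known. Values in every library are given for the 6 called genes of each class with the largest change and no overlap and the 2 of highest FPKM in each class, pairs are set out where 1 gene is called, and up to 4 called genes by p are named from each companion list; others named are shown as examples. Counts cover all 37 genes, but the single values of 1 mitochondrial gene are not reported here. Gene positions and overlaps come from GENCODE M21 on GRCm38, promoters from RefSeq.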

Additional observations from a re-analysis of the deposited data

How the results depend on the processing

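Under size factors in the style of DESeq2, TMM leaving out the 50 most abundant genes, a run with all low counts kept, DESeq2 and limma-voom, all 37 genes kept their direction and their side of the threshold. A filter of 1 CPM in 3 libraries changed only the call of Yars2 (edgeR adjusted p = 0.0543). No other change of call arose from these 6 settings among the 27 companion genes named by rule.

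The scale changed most. With library size alone, 6 cytosolic genes were called higher and 2 lower, at a median log2 fold change of 0.083, and 0 mitochondrial genes higher and 3 lower, at a median of -0.122. On that scale 878 of all 15347 genes were called higher and 7879 lower. The 3 FPKM settings each called 6 cytosolic genes higher and 1 lower, with medians of 0.096 (pseudocount 1), 0.101 (pseudocount 0.1) and 0.096 (all genes above 0), and 0 mitochondrial genes higher and 2 lower, with medians of -0.115, -0.137 and -0.115. Over all genes these settings, in the same order, called 790 of 20016, 814 of 20016 and 653 of 31447 higher. They called 6672, 7113 and 5312 of them lower. Asking for at least a 1.5-fold change left 10 cytosolic genes and 1 mitochondrial gene. Leaving out single libraries gave 18 to 18 cytosolic and 6 to 9 mitochondrial genes called higher and medians of 0.555 to 0.62 and of 0.305 to 0.417. Over all genes, 2782 to 3501 were called higher in these runs, against 3528 with all libraries. The ratio of summed cytosolic to mitochondrial counts was higher by 0.777 under high phosphate, and by 0.928 without Lars2 in the mitochondrial sum, an alternative chosen after seeing the data.

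Among the synthetases and the 27 companion genes named by rule, log2 fold changes that turned with library size alone were Farsa -0.11, Gars -0.093, Hars -0.33, Qars -0.051, Wars -0.28, Cars2 -0.44, Fars2 -0.025, Hars2 -0.34, Iars2 -0.13, Lars2 -0.33, Mars2 -0.24, Nars2 -0.33, Pars2 -0.29, Rars2 -0.052, Tars2 -0.12, Vars2 -0.29, Wars2 -0.013, Yars2 -0.11 and Secisbp2 -0.13. On log2(FPKM + 1), both with the filter and for all genes above 0, they were Farsa -0.086, Gars -0.067, Hars -0.30, Qars -0.12, Wars -0.24, Cars2 -0.53, Hars2 -0.55, Iars2 -0.13, Lars2 -0.30, Mars2 -0.12, Nars2 -0.39, Pars2 -0.029, Rars2 -0.089, Vars2 -0.35, Yars2 -0.13, Secisbp2 -0.028 and Cdk5rap1 -0.22. On log2(FPKM + 0.1) they were Farsa -0.095, Gars -0.069, Hars -0.32, Qars -0.13, Wars -0.25, Cars2 -0.65, Hars2 -0.62, Iars2 -0.14, Lars2 -0.31, Mars2 -0.20, Nars2 -0.60, Pars2 -0.029, Rars2 -0.099, Vars2 -0.46, Yars2 -0.14, Secisbp2 -0.031 and Cdk5rap1 -0.28. Leaving out a library turned 1 gene, Cars2, whose values ran from -0.033 to 0.098 and were negative without normal phosphate replicate 2.

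Replicate numbers are shared between the diets, but the labels tie them to no animal, litter or day, and same-numbered libraries correlated at -0.0215, 0.0223 and 0.0188 in their deviations, with 1 of 3 normal phosphate libraries closest to its own number, so the numbers were not taken as pairs. With a replicate block, 18 cytosolic genes (median 0.557) and 9 mitochondrial genes (median 0.351) were called higher and 0 lower, and Yars2 was not called (edgeR adjusted p = 0.053). Among the companion genes the replicate block changed the call of Secisbp2 (edgeR adjusted p = 0.0597).

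Depth limits the rarer mitochondrial genes most, with 90 to 133 counts for Pars2 and 161 to 246 for Nars2. With 3 libraries for each diet, log2 fold changes had SEs of 0.09 to 0.17, and the smallest called change among the 37 genes was 0.35. Overlapping genes, the unknown strand setting and the shift in cell type markers limit single genes and were not resolved. Why the FPKM and count results differ was not tested.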

Other observations

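For some synthetase genes the 2 deposited tables differed from library to library. Pars2, the mitochondrial prolyl enzyme, had FPKM values of 1.21, 1.32 and 4.33 under normal and 1.51, 3.79 and 1.14 under high phosphate, a 3.80-fold range between the lowest and highest library, where its counts scaled by library size ranged over 1.41-fold. Tars2 had a 2.36-fold range in FPKM against 1.16-fold in counts, Nars2 2.34-fold against 1.41-fold, and Sars 1.95-fold against 1.22-fold. For Kars the ranges were alike, 1.20-fold and 1.21-fold.

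Per length, the order of the mitochondrial genes ran over a wide range, from 31.2 FPKM for Lars2, whose level is uncertain, to 1.12 for Mars2. Wars2, which was called, was second lowest at 1.52 FPKM. The tryptophan pair was also the only one in which the mitochondrial enzyme gained on the cytosolic one in every library.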
